A study of Zonotrichia albicollis with 38 samples.

Results

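The hypothalamus (HYP) of white-striped (WS) male white-throated sparrows, Zonotrichia albicollis, was compared with that of tan-striped (TS) males over every gene counted. The comparison rests on 10 WS and 9 TS libraries, 1 per bird, which are all of the HYP libraries among the 38 listed for the series. They were chosen by the morph and region in the labels and by no measured value. The other 19 libraries hold medial amygdala (MeA) tissue of the same birds and serve below only to show whether a difference was also seen there. WS birds had the label WS for morph, 8 of them with the age class ASY and 2 with SY. TS birds had the label TS, 2 of them with ASY and 7 with SY. All birds were free-living males taken in May and June, when territorial behaviour peaks, on the day after they had been challenged with song playback and a mist net. SY and ASY are bird-banding codes for a male in its second calendar year and for an older one. Stage was E in 8 WS and 6 TS birds and I, L or L/I in the others, codes that the labels do not explain. Each HYP library pooled 4 punches of 1 mm, so the ventromedial and anterior hypothalamus, the paraventricular nucleus and the caudal preoptic area are mixed in it.

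The morphs of this songbird differ by a rearrangement of chromosome ZAL2. WS birds carry a copy called ZAL2m, which holds nested inversions and hardly recombines with the standard ZAL2, and TS birds lack it. Nearly all WS birds have 1 copy of each form, because birds of unlike morph pair with each other. WS males are known to sing and defend territories more, and TS males to feed their young more, and the hypothalamus holds cell groups that act in sexual, aggressive and parental behaviour. The labels give plumage morph and not karyotype, and the alleles of a gene were not counted apart here, so a WS value combines what was counted from both chromosome copies.

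Library totals ran from 7150476 to 12441525 counts in WS birds and from 8653109 to 12394806 in TS birds. Values below are CPM, read counts scaled to one common library size with TMM factors, and are given as the lowest, median and highest bird of each morph. The 9 hypothalamic marker genes on the list summed to 247 to 318 CPM in HYP, against 40.1 to 56.2 CPM in MeA, and the 10 pallial markers summed to 191 to 254 CPM in HYP, against 1290 to 1670 CPM in MeA. The tissue thus carried the markers of its label. The first 2 principal components, with 11.3% and 9.08% of the variance, did not part the morphs. In tissue of mixed cells, fewer cells of a type cannot be told apart from less RNA per cell.

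Few genes differed between the morphs, and most of those that did were on ZAL2. A gene was called at an edgeR adjusted p under 0.05, which 95 of 11930 tested genes reached (0.796%), 56 of them higher (0.469%) and 39 lower (0.327%) in WS. An unadjusted p under 0.05 was found for 905 genes (7.59%). DESeq2's Wald test gave a p for 14739 genes and called 146 (0.991%), the 95 among them. Its own filter on low counts may have kept part of the 14739 out of the adjustment. With only the 8 WS and 6 TS birds of stage E kept, edgeR called 45 of 11982 genes (0.376%). The differences were mostly small. Among the called genes 44 differed by less than 1.25-fold, 25 by more than 1.5-fold and 7 by more than 2-fold (0.0587%), and the median fold was 1.27. All 7 genes over 2-fold were higher in WS. These were LOC102066018, LOC102062779, CENPF, CEP57L1, TCTE1, ACSS1 and LOC102066154. All were genes of low level, at no more than 8.50 CPM in any bird. TCTE1, ACSS1 and LOC102066154 lost the call with age class in the model. Among genes lower in WS the largest difference was that of CMPK2, just under 2-fold. For 32 genes (0.268% of those tested) the values of the WS birds lay wholly outside the range of the TS birds, above it for 19 (0.159%) and below it for 13 (0.109%).

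**Figure D1:**
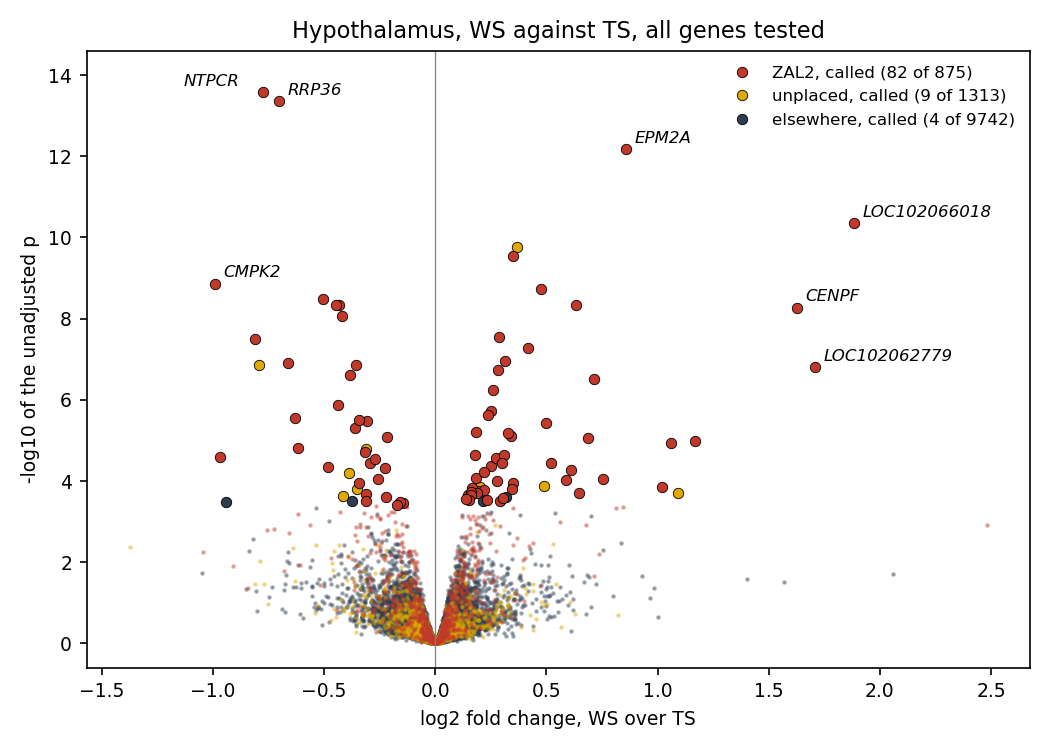
Each point is 1 of the 11930 genes tested in HYP, with the log2 fold change of WS over TS on the x axis and the −log10 of the unadjusted p on the y axis. Large points are the 95 called genes, of which 82 are on ZAL2 (red), 9 have no position (yellow) and 4 are elsewhere (dark blue). NTPCR and RRP36 are highest on the left and EPM2A on the right.

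The place of each gene was looked up in a gene table of another assembly, used only for which chromosome a gene is on and which genes are its neighbours. ZAL2 held 82 of the 95 called genes, out of 875 of its genes tested (9.37%), 50 of them higher and 32 lower in WS. Genes placed on other chromosomes gave 4 calls of 9742 (0.0411%). Genes that could not be placed gave 9 of 1313 (0.685%). For 7 of these 9 the table lists the gene under a newer symbol, and all 7 are then on ZAL2, which brings the count to 89 of 93 called genes with a position. An unadjusted p under 0.05 was found in 34.7% of ZAL2 genes and in 5.4% of genes elsewhere, so the weaker differences were also concentrated on ZAL2. Only WS birds carry ZAL2m. The counts were deposited under a name with NCBI plus Zal2m, but the labels do not say how ZAL2m entered the alignment. On ZAL2 a difference in expression and a difference in how well the reads of both forms align therefore cannot be told apart. Of the 32 genes whose ranges did not overlap, 30 were on ZAL2 and the other 2, KIAA1919 and FAM26E, are among the unplaced genes listed on ZAL2 under their newer symbols MFSD4B and CALHM5.

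Along ZAL2 the called genes were spread over almost the whole gene order, with no calls at one end. In the assembly's order of the 1016 counted genes the first call was at position 96 and the last at 1015. None of the 74 tested genes before the first was called, and 8.11% of them had an unadjusted p under 0.05. From position 101 on, each full stretch of 100 genes held 5 to 14 calls, and the share called was lowest at 5.75% in positions 101 to 200 and highest at 15.9% in positions 501 to 600. Higher and lower genes were mixed in all of these stretches but 1. The exception was positions 601 to 700, from LOC102062779 on, with 8 genes higher and 0 lower in WS. Among the tested genes of this order 7 pairs of called genes stood next to each other, though genes that were not tested may lie between them. In 4 of these pairs both genes differed in the same direction, namely IARS2 with BPNT1, TAF5L with ABCB10, GGPS1 with TBCE and PHACTR2 with LTV1. The other 3 pairs, LOC102063416 with ANKEF1, MRPS18A with RSPH9 and SNTG2 with TMEM18, each had 1 gene higher and 1 lower. With 9.37% of tested ZAL2 genes called, 50 higher and 32 lower, some such pairs would stand side by side in any order. Whether 7 pairs, or 4 with the same direction, exceed that was not tested. The use of strand in counting was not given in the sources used here, so reads of neighbours that overlap cannot be told apart.

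**Figure D2:**
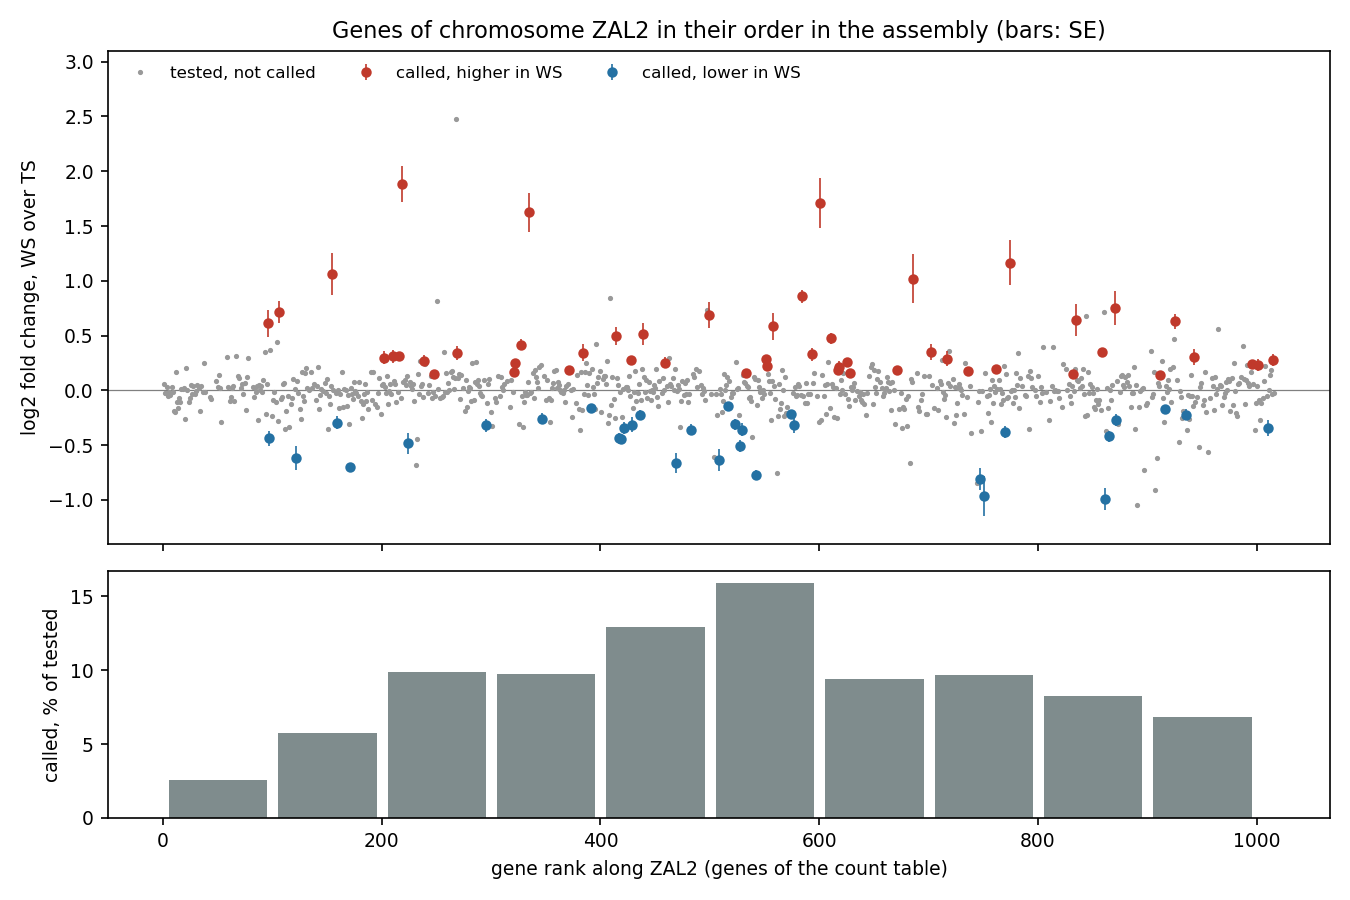
The upper panel shows the log2 fold change of WS over TS in HYP for each tested ZAL2 gene, by its position in the assembly's order of counted genes, with called genes in red (higher in WS) and blue (lower in WS) and SE as bars. The lower panel shows the percentage of tested genes called in each stretch of 100 genes, which was 2.56% at the left end and reached 15.9% in positions 501 to 600. The grey point near 2.5 is LOC102072839, which was not called.

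The called genes elsewhere were close to the threshold. They were 4 of 9742, of which 5.4% had an unadjusted p under 0.05. The adjustment ran over all tested genes together, so an adjusted p given here also rests on the many ZAL2 calls. With age class in the model all 4 lost the call, and 3 other genes elsewhere were called. EPS15L1, an adaptor of endocytosis, was at 20.4, 24.9 and 30.1 CPM in WS birds and at 18.2, 19.9 and 22.4 CPM in TS birds (log2 fold change 0.32 with SE 0.073, edgeR adjusted p = 0.0363). RASA2, which switches off Ras, differed by 0.22 (SE 0.051), CAV2, a caveolin of membrane pits, by −0.37 (SE 0.088) and KNSTRN, a kinetochore protein, by −0.94 (SE 0.22), each with an edgeR adjusted p of 0.0416. KNSTRN was near the floor, at 0.171 to 1.03 CPM in WS birds and 0.822 to 1.77 CPM in TS birds. The morphs overlapped in all 4 genes. With single birds left out, these genes were called in 3 to 6 of 19 fits. The unplaced PLSCR1, a phospholipid scramblase, and PROKR2, a receptor for prokineticins, remained without a position. PLSCR1 was at 10.6, 13.7 and 15.7 CPM in WS birds and at 6.34, 9.32 and 12.8 CPM in TS birds (log2 fold change 0.49 with SE 0.11, edgeR adjusted p = 0.0239). PROKR2 was at 7.68, 10.5 and 12.2 CPM in WS birds and at 12.1, 13.8 and 16.3 CPM in TS birds (log2 fold change −0.42 with SE 0.096, edgeR adjusted p = 0.0347).

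The called genes are described next by what they are known to do in other vertebrates. The groups were drawn up after the values were known and count called genes only. With no number tested beside it, the size of a group is no measure of enrichment. Metabolism and protein modification took 9 called genes, 6 higher and 3 lower in WS, and included 2 of the 3 genes with the lowest p. NTPCR encodes an enzyme that splits nucleoside triphosphates. It was at 32.2, 34.3 and 40.7 CPM in WS birds and at 56.1, 57.7 and 63.9 CPM in TS birds (log2 fold change −0.77 with SE 0.046, edgeR adjusted p = 2.56e-10). The highest WS bird stayed far below the lowest TS bird. EPM2A encodes laforin, a phosphatase that keeps glycogen soluble and is lost in Lafora disease. It was at 46.7, 55.9 and 63.2 CPM in WS birds and at 27.0, 30.3 and 33.3 CPM in TS birds (log2 fold change 0.86 with SE 0.060, edgeR adjusted p = 2.67e-09). Here too no WS bird reached the TS range. Of 18 tested genes of glycogen metabolism EPM2A alone was called (5.56%, beside 0.796% of all genes). The median log2 fold change of the list was 0.0067, beside −0.00044 over all genes. This list and the others below were chosen with earlier results of these data known, so their shares are no measure of enrichment. Most also held genes of ZAL2, 3 of the 18 here. On ZAL2 9.37% of tested genes were called and 34.7% had an unadjusted p under 0.05. PYGB, brain glycogen phosphorylase, which splits glycogen, was at 216, 291 and 320 CPM in WS birds and at 241, 306 and 407 CPM in TS birds and did not pass (edgeR adjusted p = 0.706).

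RNF144A, a ubiquitin ligase, was also without overlap, at 138, 149 and 159 CPM in WS birds and at 109, 118 and 123 CPM in TS birds (log2 fold change 0.35 with SE 0.033, edgeR adjusted p = 5.67e-07). AMD1, which makes decarboxylated S-adenosylmethionine for polyamine synthesis, was at 381, 417 and 460 CPM in WS birds and at 337, 363 and 409 CPM in TS birds (log2 fold change 0.19, edgeR adjusted p = 0.0279). ADI1, a dioxygenase that returns the remainder of that pathway to methionine, was at 52.7, 57.6 and 61.4 CPM in WS birds and at 68.0, 76.3 and 84.9 CPM in TS birds (log2 fold change −0.42, edgeR adjusted p = 7.51e-06). For ADI1 every WS bird was below every TS bird, while the morphs overlapped for AMD1, which was called in 8 of the 19 fits that omitted a single bird and lost the call with age class in the model (edgeR adjusted p = 0.402). BPNT1, a nucleotidase of sulfur metabolism, UFL1, a ligase of the ubiquitin-like UFM1, and HDDC2 were higher in WS by 0.25, 0.23 and 0.29 on the log2 scale. LOC102071828, listed as CYB5R4, a cytochrome b5 reductase, was lower by 0.22 (log2 fold change −0.22).

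Genes of mitochondria numbered 12, with 5 higher and 7 lower in WS. CMPK2, a mitochondrial kinase for pyrimidine nucleotides that interferon induces, was at 6.13, 7.21 and 10.2 CPM in WS birds and at 12.9, 14.9 and 19.6 CPM in TS birds (log2 fold change −0.99 with SE 0.10, edgeR adjusted p = 2.33e-06). Here every WS bird was below every TS bird. CMPK2 was the only call among 22 tested genes of interferon and innate responses (4.55%, beside 0.796% of all genes). Of the 22, 6 had an unadjusted p under 0.05, beside 7.59% of all genes. On ZAL2, where 34.7% of tested genes had such a p, lay 5 of the 22. RSAD2, an antiviral enzyme of that list and also on ZAL2, stood at 0.870, 1.36 and 3.48 CPM in WS birds and at 0.523, 1.14 and 1.62 CPM in TS birds (log2 fold change 0.71 with SE 0.29, edgeR adjusted p = 0.506). The list's median log2 fold change was 0.12. ACSS1 makes acetyl-CoA from acetate inside mitochondria and was a gene of low level, at 1.05, 1.66 and 2.52 CPM in WS birds and at 0.572, 0.711 and 1.22 CPM in TS birds (log2 fold change 1.06 with SE 0.19, edgeR adjusted p = 0.00331). It was the only call among 27 tested genes of acetyl-CoA and the citric acid cycle (3.7%), and 3 had an unadjusted p under 0.05.

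Protein synthesis inside mitochondria was represented by 3 genes. AARS2, which loads alanine on mitochondrial tRNA, was at 39.8, 42.7 and 45.3 CPM in WS birds and at 53.0, 56.7 and 65.2 CPM in TS birds (log2 fold change −0.43 with SE 0.047, edgeR adjusted p = 4.7e-06). IARS2, which does the same for isoleucine, differed the other way, at 106, 115 and 123 CPM in WS birds and at 93.3, 101 and 111 CPM in TS birds (log2 fold change 0.17, edgeR adjusted p = 0.025). MRPS18A, a protein of the mitochondrial ribosome, was higher in WS without overlap (log2 fold change 0.28, edgeR adjusted p = 9.63e-05). COQ3 and ADCK3, which act in coenzyme Q synthesis, were lower in WS, with log2 fold changes of −0.34 and −0.31. With age class in the model COQ3 was called and ADCK3 was not (edgeR adjusted p = 0.0252 and 0.105). ABCB10, a transporter of the inner membrane, MGME1, a nuclease of mitochondrial DNA, and LOC102074665, listed as the cytochrome oxidase assembly factor COX20, were lower too (−0.36, −0.48 and −0.23). NDUFAF5, which helps to assemble complex I, and SERAC1, which remodels phosphatidylglycerol, were higher (0.31 and 0.16). MGME1, NDUFAF5 and SERAC1 lost the call with age class in the model.

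RNA and ribosome synthesis took 9 called genes, 5 higher and 4 lower in WS. RRP36, which acts in the early cutting of ribosomal RNA, was at 25.2, 26.6 and 27.7 CPM in WS birds and at 38.5, 43.8 and 46.1 CPM in TS birds (log2 fold change −0.70 with SE 0.043, edgeR adjusted p = 2.56e-10). The WS birds lay close together and far below the TS birds. It was the only call among the 28 tested genes of the ribosome biogenesis list (3.57%, beside 0.796% of all genes). On that list 2 genes had an unadjusted p under 0.05, and the median log2 fold change was −0.0024. POLR1B, a core subunit of RNA polymerase I, was at 20.6, 22.6 and 25.2 CPM in WS birds and at 25.0, 27.6 and 31.7 CPM in TS birds (log2 fold change −0.29, edgeR adjusted p = 0.00814), so its morphs met at their edges. NVL and LTV1, which act in the assembly of ribosomal subunits, were higher in WS by 0.30 and 0.22 on the log2 scale. The exosome cofactor C1D and PPIL4, a spliceosomal cyclophilin, were lower (−0.32 and −0.22), and the RNA-binding or helicase genes GPATCH11, ASCC3 and SRBD1 were higher (0.25, 0.28 and 0.35).

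Among 7 genes of transcription and chromatin, 5 were higher in WS. TAF5L, a subunit of a histone acetylase complex, was one of the exceptions, at 36.1, 41.5 and 45.0 CPM in WS birds and at 51.1, 57.7 and 69.6 CPM in TS birds (log2 fold change −0.51 with SE 0.054, edgeR adjusted p = 4.36e-06). Its ranges were apart. GREB1, known as an estrogen-induced gene in mammalian breast cells, was at 76.1, 110 and 148 CPM in WS birds and at 45.3, 65.7 and 93.3 CPM in TS birds (log2 fold change 0.64 with SE 0.15, edgeR adjusted p = 0.0303). The morphs overlapped, and GREB1 was called in 8 of the 19 fits that omitted a single bird. It was the only call among 16 tested genes of steroid signalling (6.25%, beside 0.796% of all genes), and 2 had an unadjusted p under 0.05. The methyltransferase SMYD3 and the chromatin subunit MTA3 were higher by 0.52 and 0.18 on the log2 scale. YPEL5, a ubiquitin ligase complex partner, and the SUMO ligase ZNF451 differed by 0.15 and 0.14, and PNRC1, a coactivator of nuclear receptors, by −0.17.

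Of 13 called genes of cell division, cilia and cytoskeleton, 10 were higher in WS, several of them at low levels. CENPF, a kinetochore protein of dividing cells, was at 3.04, 3.94 and 6.0 CPM in WS birds and at 0.757, 1.32 and 2.04 CPM in TS birds (log2 fold change 1.62 with SE 0.18, edgeR adjusted p = 4.93e-06). Every WS bird was above every TS bird. CEP57L1, a relative of a centrosomal protein, was at 3.27, 3.94 and 5.92 CPM in WS birds and at 0.977, 1.54 and 3.55 CPM in TS birds, with 1 TS bird inside the WS range (log2 fold change 1.17 with SE 0.21, edgeR adjusted p = 0.0031). The third call among 19 tested mitosis and kinetochore genes (15.8% called, beside 0.796% of all genes) was KNSTRN, lower in WS. Of the 19, 8 had an unadjusted p under 0.05, beside 7.59% of all genes. On ZAL2, where 9.37% of tested genes were called, lay 5 of the 19. The median of that list was 0.11. It was chosen with earlier results of these data known, so its share is no measure of enrichment. TOP2A, a topoisomerase and common marker of dividing cells, did not pass, at 2.06, 2.98 and 4.02 CPM in WS birds and at 1.22, 2.28 and 2.76 CPM in TS birds (log2 fold change 0.52 with SE 0.17, edgeR adjusted p = 0.287).

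FERMT1, a kindlin that activates integrins, was at 7.48, 8.82 and 12.5 CPM in WS birds and at 4.16, 5.63 and 6.39 CPM in TS birds (log2 fold change 0.71 with SE 0.10, edgeR adjusted p = 0.000148), with no overlap. Among 26 tested kinesins 1 was called (3.85%, beside 0.796% of all genes) and 4 had an unadjusted p under 0.05. On ZAL2, where 34.7% of tested genes had such a p, lay 6 of the 26. The called kinesin, KIF25, was at 19.0, 22.1 and 28.4 CPM in WS birds and at 10.5, 12.4 and 23.8 CPM in TS birds (log2 fold change 0.69 with SE 0.12, edgeR adjusted p = 0.00269). One TS bird reached the WS range. On a cilium list, also chosen with earlier results known, 4 of 20 tested genes had an unadjusted p under 0.05. Called were 2 of the 20 (10%, beside 0.796% of all genes). These were TCTE1 and RSPH9, parts of the beating axoneme of cilia, which differed in opposite directions (log2 fold changes 1.09 and −0.31). Neither was called with age class in the model (edgeR adjusted p = 0.124 and 0.177). WDR92, which helps to assemble dynein, was lower in WS (−0.39). SNTG2, a syntrophin, CCDC167, TBCE, a tubulin folding cofactor, ARHGAP18, a GTPase-activating protein, and PHACTR2, an actin regulator, were higher (0.75, 0.50, 0.22, 0.35 and 0.19).

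Membranes, trafficking and transport took 20 called genes, 12 higher and 8 lower in WS. TRAPPC3L, a vesicle-tethering protein, was at 5.50, 7.83 and 10.2 CPM in WS birds and at 12.3, 13.8 and 15.0 CPM in TS birds (log2 fold change −0.81 with SE 0.099, edgeR adjusted p = 2.33e-05). Its morphs did not overlap. KIAA1919, a sugar transporter of the MFSD4B type, showed a modest difference with little spread, at 94.7, 103 and 107 CPM in WS birds and at 74.3, 78.8 and 83.8 CPM in TS birds (log2 fold change 0.37 with SE 0.034, edgeR adjusted p = 4e-07). FAM26E, a relative of the CALHM channels, was lower in WS at 5.21, 6.99 and 8.17 CPM, against 8.45, 11.5 and 14.9 CPM in TS birds (log2 fold change −0.79 with SE 0.10, edgeR adjusted p = 7.97e-05). In both of these genes the ranges were apart.

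Endosomes and lysosomes were represented on both sides. VTA1, which works in multivesicular bodies, was at 66.0, 74.2 and 81.6 CPM in WS birds and at 44.7, 53.3 and 59.7 CPM in TS birds (log2 fold change 0.48 with SE 0.050, edgeR adjusted p = 2.76e-06). FIG4, which sets phosphoinositide levels of endosomes, was lower in WS, at 34.2, 40.3 and 43.3 CPM against 43.2, 52.8 and 57.3 CPM in TS birds (log2 fold change −0.38, edgeR adjusted p = 0.000124). IGF2R, the receptor that carries mannose 6-phosphate proteins to lysosomes, was higher in WS without overlap (log2 fold change 0.18, edgeR adjusted p = 0.00216). The recycling endosome GTPase RAB4A, NBAS of Golgi to ER transport and EPS15L1 were higher (0.16, 0.15 and 0.32), and the ER cargo protein MCFD2 and the caveolin CAV2 were lower (−0.16 and −0.37). On a list of Golgi and trafficking genes, 3 of 26 tested were called (11.5%, beside 0.796% of all genes), EPS15L1, TRAPPC3L and CAV2. Of the 26, 4 had an unadjusted p under 0.05. The list was chosen with earlier results of these data known, so its share is no measure of enrichment.

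Isoprenoid and lipid genes included GGPS1, which makes geranylgeranyl diphosphate, at 98.1, 104 and 114 CPM in WS birds and at 79.0, 86.5 and 90.4 CPM in TS birds (log2 fold change 0.28 with SE 0.034, edgeR adjusted p = 2.27e-05). NUS1, of dolichol synthesis, was higher too (0.18), and GNPAT, which starts plasmalogen synthesis, was lower (−0.15). GNPAT was called in only 3 of the 19 fits that left out a single bird. SLC29A1, the nucleoside transporter ENT1, which carries adenosine, was lower in WS, at 36.6, 42.8 and 45.6 CPM against 46.6, 52.6 and 61.1 CPM in TS birds (log2 fold change −0.34 with SE 0.056, edgeR adjusted p = 0.00119), again without overlap. APMAP and TMEM181 were higher without overlap (0.31 and 0.26), KIAA1244, now ARFGEF3, was higher (0.20), and TMEM18 was lower (−0.27).

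Secreted factors, receptors and signalling gave 16 genes, 7 higher and 9 lower in WS. A ligand and a binding protein of TGF-beta differed in opposite directions. TGFB2, the ligand TGF-beta 2, was at 48.3, 54.0 and 57.2 CPM in WS birds and at 34.9, 39.7 and 45.1 CPM in TS birds (log2 fold change 0.42 with SE 0.052, edgeR adjusted p = 3.76e-05), and the morphs did not overlap. LTBP1, which holds latent TGF-beta in the matrix, was at 10.3, 12.4 and 16.9 CPM in WS birds and at 16.3, 19.5 and 23.5 CPM in TS birds (log2 fold change −0.66 with SE 0.088, edgeR adjusted p = 7.85e-05), with an overlap at the edge. No other gene of the 26 tested on the TGF-beta list was called (7.69% in all, beside 0.796% of all genes). Of the 26, 4 had an unadjusted p under 0.05. On ZAL2, where 34.7% of tested genes had such a p, lay 4 of the 26. The list was chosen with earlier results known, and its median log2 fold change was 0.043. MAP3K7, the kinase TAK1 that TGF-beta and cytokines activate, and MAP3K5, the stress kinase ASK1, were both higher in WS. MAP3K7 was at 148, 154 and 164 CPM in WS birds and at 117, 131 and 144 CPM in TS birds, without overlap (log2 fold change 0.24, edgeR adjusted p = 0.00099). MAP3K5 was at 28.3, 33.9 and 39.5 CPM in WS birds and at 23.6, 26.5 and 28.7 CPM in TS birds (log2 fold change 0.33, edgeR adjusted p = 0.00217). NFKBIE, an inhibitor of NF-kB, was lower in WS at 20.6, 22.9 and 24.7 CPM, against 26.8, 30.8 and 33.8 CPM in TS birds (log2 fold change −0.45 with SE 0.049, edgeR adjusted p = 4.7e-06), without overlap.

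Genes of secreted proteins with high counts in the hypothalamus were among the calls. AGT, angiotensinogen, which glial cells of the brain make, was at 1465, 1621 and 1895 CPM in WS birds and at 1817, 1971 and 2338 CPM in TS birds (log2 fold change −0.31 with SE 0.050, edgeR adjusted p = 0.00125). CHGB, the chromogranin B of dense-core vesicles, was at 887, 1046 and 1232 CPM in WS birds and at 725, 840 and 920 CPM in TS birds (log2 fold change 0.34 with SE 0.059, edgeR adjusted p = 0.00251). The morphs overlapped slightly in both. EFEMP1, the matrix protein fibulin-3, was lower in WS at 34.9, 45.7 and 67.3 CPM, against 50.8, 72.7 and 86.4 CPM in TS birds (log2 fold change −0.62 with SE 0.11, edgeR adjusted p = 0.00431). FRK, a Src-family kinase, was lower at 1.05, 1.62 and 3.39 CPM, against 2.71, 3.17 and 4.57 CPM in TS birds (log2 fold change −0.97 with SE 0.18, edgeR adjusted p = 0.00654), and 1 WS bird was within the TS range. The secreted neudesin NENF, FAM150B, the ligand ALKAL2 of the receptor ALK, and UST, a sulfotransferase of matrix sugars, were lower in WS (−0.26, −0.35 and −0.31). EDARADD, an adaptor of the EDAR receptor, and TPBG, a glycoprotein that dampens Wnt signals, were higher (0.59 and 0.31).

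**Figure D3:**
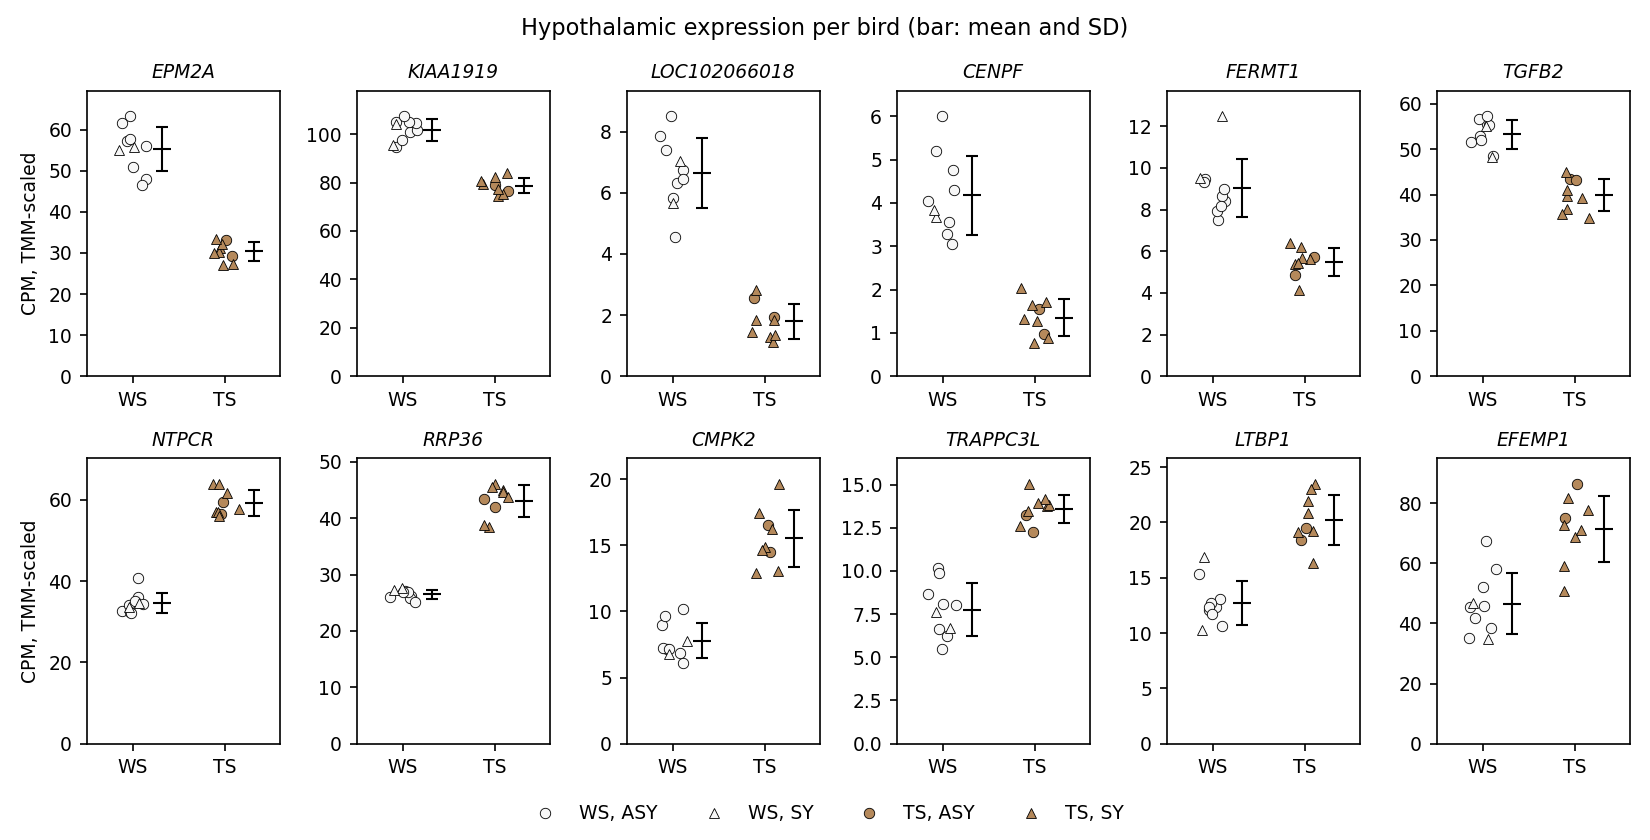
CPM of each bird in HYP for 12 called genes, 6 higher (top row) and 6 lower (bottom row) in WS, with WS birds (white) left of TS birds (brown), circles for ASY and triangles for SY birds, and bars for the mean and SD of 10 WS and 9 TS birds. The morphs are apart in 10 of the panels and overlap for LTBP1 and EFEMP1. In WS, the SY birds lie among the ASY birds for EPM2A, above them for FERMT1 and RRP36, and on either side of them for LTBP1.

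No role could be given to 8 called genes. LOC102066018, listed as a non-coding or miscellaneous RNA, had the largest called difference, at 4.56, 6.61 and 8.50 CPM in WS birds and at 1.12, 1.83 and 2.81 CPM in TS birds (log2 fold change 1.88 with SE 0.16, edgeR adjusted p = 1.34e-07). LOC102062779, protein-coding and without a name, was at 1.1, 1.46 and 2.31 CPM in WS birds and at 0.108, 0.457 and 0.822 CPM in TS birds (log2 fold change 1.71 with SE 0.23, edgeR adjusted p = 8.41e-05). In both genes the ranges were apart. LOC102062779 was near the floor in TS birds. It may have passed the filter on low counts through the WS birds alone, which favours such a difference. SMIM8, LOC102063416 and LOC102066154 were higher in WS too (0.63, 0.61 and 1.02), and ANKEF1, LOC102060438 and WDR27 were lower (−0.44, −0.36 and −0.63).

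The lists of genes best known for hypothalamic control of behaviour are short, and with 0.796% of all genes called and 7.59% at an unadjusted p under 0.05, 0 calls on such a list is near the share over all genes. Of 26 listed neuropeptide genes 10 were not found among the counted genes, and 14 were tested. Of the 14 tested, 0 were called by edgeR, and 2 had an unadjusted p under 0.05. Nothing can be said here of the genes that were not tested. PDYN, the dynorphin precursor, was at 339, 590 and 940 CPM in WS birds and at 246, 472 and 566 CPM in TS birds, with wide overlap (log2 fold change 0.39 with SE 0.18, edgeR adjusted p = 0.614). CCK, cholecystokinin, was at 34.5, 38.2 and 50.1 CPM in WS birds and at 40.8, 48.2 and 55.3 CPM in TS birds (log2 fold change −0.25 with SE 0.080, edgeR adjusted p = 0.258). PENK, the enkephalin precursor, was at 1130, 1381 and 1662 CPM in WS birds and at 1169, 1466 and 1940 CPM in TS birds. GAL, galanin, was at 345, 569 and 702 CPM in WS birds and at 440, 633 and 826 CPM in TS birds, and neither PENK nor GAL passed (edgeR adjusted p = 0.889 and 0.843). Of 23 neuropeptide receptors, 0 were called and 4 had an unadjusted p under 0.05. Their μ-opioid receptor OPRM1, on ZAL2, was at 153, 174 and 195 CPM in WS birds and at 160, 195 and 219 CPM in TS birds (log2 fold change −0.13 with SE 0.057, edgeR adjusted p = 0.594).

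Lists of transmitter, clock and activity genes also held 0 calls by edgeR, which at their size is again near the 0.796% over all genes. The numbers tested and those with an unadjusted p under 0.05 were 19 and 2 for monoamine genes, 24 and 0 for GABA and glutamate genes, 14 and 0 for clock genes and 12 and 1 for thyroid and photoperiod genes, beside 7.59% of all genes with such a p. Of 18 listed immediate early genes, which neurons switch on when active, 9 were not found among the counted genes. Of the 9 tested, 0 were called and 3 had an unadjusted p under 0.05. EGR1, one of the 9, was at 124, 190 and 284 CPM in WS birds and at 121, 210 and 428 CPM in TS birds (log2 fold change −0.19 with SE 0.18, edgeR adjusted p = 0.889). FOSL2, on ZAL2, had the lowest p of the list (log2 fold change 0.42 with SE 0.13, edgeR adjusted p = 0.221). Median log2 fold changes of all these lists lay between 0.00064 and 0.12.

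Markers of the cell types and regions that a punch can hold had summed levels that overlapped between the morphs. Each list named 12 genes, and those not counted or too low in counts were not tested. Of 69 tested genes on 10 marker lists 0 were called by edgeR, where 0.796% of all genes were, so the count is near that share. An unadjusted p under 0.05 was found for 3 of them, beside 7.59% of all genes, 1 each for astrocytes and tanycytes, microglia and meninges. The 6 counted oligodendrocyte markers summed to 1360 CPM in the median WS bird and 1550 CPM in the median TS bird, with the lowest and the highest bird both of WS. The 9 markers of astrocytes and tanycytes summed to 4210, 4720 and 5240 CPM in WS birds and to 4020, 4630 and 4760 CPM in TS birds. Microglial markers summed to 35.4, 44.1 and 65.6 CPM in WS birds and to 29.1, 44.0 and 57.3 CPM in TS birds. Endothelial and mural markers summed to 272, 321 and 369 CPM in WS birds and to 294, 348 and 410 CPM in TS birds. The sums for ependymal, blood, meningeal and pituitary markers overlapped as widely.

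Age class was uneven between the morphs, ASY in 8 of 10 WS birds and 2 of 9 TS birds, so it was examined in 3 ways. With age class in the model, 51 genes were called (0.427%), 26 higher (0.218%) and 25 lower (0.21%) in WS, and 47 of them were among the 95. The other 4 were CRB2, HFM1, LOC102069238 and SLC4A1AP. Of the 48 genes that lost the call, 31 were higher and 17 lower in WS, and 38 were on ZAL2. The estimates moved in both directions, being larger with age class for 46 of the 95 genes. For the 95 genes the log2 fold change with age class divided by that without had a median of 0.994 and ranged from 0.712 to 1.34, and all 95 kept their sign. The SE grew by a median factor of 1.24 for these genes and 1.23 for all tested genes. The factor computed from the association of age class with morph (phi = 0.578) was 1.23. For the 48 genes without a call the median ratio of estimates was 1.0, with a range of 0.712 to 1.2, and that of the SE was 1.25. Why these genes lost the call was not tested.

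Genes that kept their call with age class included EPM2A (log2 fold change 0.85 with SE 0.074, edgeR adjusted p = 4.22e-07), NTPCR (−0.77, SE 0.058, edgeR adjusted p = 7.17e-08) and RRP36 (−0.68, SE 0.053, edgeR adjusted p = 7.17e-08). By group, 13 of 20 membrane and trafficking genes, 9 of 16 genes of signalling and 7 of 12 mitochondrial genes kept the call. So did 5 of 9 genes of metabolism, 4 of 13 of division and cytoskeleton and 2 of 7 of transcription and chromatin. Of 9 genes of RNA and ribosome synthesis, RRP36 alone did. GREB1 had a log2 fold change of 0.66 (SE 0.18) with age class and did not pass (edgeR adjusted p = 0.164). CHGB had 0.28 (SE 0.072, edgeR adjusted p = 0.124) with age class and 0.34 without, and ACSS1 had 0.85 (SE 0.22, edgeR adjusted p = 0.124) and 1.06. EPS15L1, RASA2, CAV2, KNSTRN, PLSCR1 and PROKR2 all lost the call. So did the mitochondrial genes MGME1, NDUFAF5, SERAC1 and ADCK3, and TMEM18, RAB4A, MCFD2 and GNPAT of membranes. AMD1, HDDC2, UFL1 and LOC102071828 of metabolism and SMYD3, MTA3, YPEL5 and ZNF451 of chromatin lost it too. The same held for TPBG, NENF, FAM150B, UST, LOC102063416 and LOC102066154. It also held for SNTG2, CCDC167, TBCE, ARHGAP18, PHACTR2, WDR92, TCTE1 and RSPH9.

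Age class itself, ASY over SY with morph in the model, gave 0 calls by edgeR, and 562 genes (4.71%) had an unadjusted p under 0.05. The lowest edgeR adjusted p was 0.618, and PLXNA2 had the lowest unadjusted p. Among the 95 morph genes 2 had an unadjusted p under 0.05 for age class (2.11%), KIAA1244 (log2 fold change −0.12) and MGME1 (−0.24). MGME1 also lost the morph call with age class in the model. Interaction of morph with age class also gave 0 calls, with 662 genes (5.55%) at an unadjusted p under 0.05 and a lowest adjusted p of 0.88. Within the ASY birds alone, 8 WS against 2 TS, a model with a spread shared by all birds called 16 genes (0.134%). Within the SY birds, 2 WS against 7 TS, it called 10 genes (0.0838%). In these contrasts an unadjusted p under 0.05 was found for 8.11% of genes in ASY and 4.87% in SY birds. All 95 morph genes had the same sign in both age classes, and 73 had an unadjusted p under 0.05 in each, though they were chosen on the pooled birds, which favours such a match.

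EPM2A shows how the birds lay by age. Among ASY birds it was at 46.7 to 63.2 CPM in WS and at 29.2 and 33.1 CPM in TS, and among SY birds at 55.0 and 55.8 CPM in WS and at 27.0 to 33.3 CPM in TS. The log2 fold change was 0.83 (SE 0.11) in ASY and 0.87 (SE 0.10) in SY birds. NTPCR differed by −0.74 (SE 0.078) in ASY and −0.80 (SE 0.088) in SY birds, and RRP36 by −0.70 (SE 0.072) and −0.65 (SE 0.080). In each of these genes both SY birds of WS lay outside the TS range, on the side of the other WS birds. The sulfotransferase gene UST had the lowest interaction p among the 95 (unadjusted p = 0.0163), with −0.08 (SE 0.11) in ASY and −0.52 (SE 0.12) in SY birds.

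ASY and SY birds were also fitted in wholly separate models, which share no bird. These called 5 of 12291 and 6 of 12156 genes (0.0407% and 0.0494%), while 6.96% and 5.33% had an unadjusted p under 0.05. EPM2A, NTPCR and RRP36 were called in both. AARS2 and KIF25 were called among ASY birds only, and LOC102066018, TRAPPC3L and LOC102072839 among SY birds only. Of the 5 genes called in ASY birds, all had an unadjusted p of 0.00431 or less in SY birds, and of the 6 called in SY birds, 5 had an unadjusted p under 0.05 in ASY birds, LOC102072839 being the exception (p = 0.175). Over 882 ZAL2 genes the log2 fold changes of the separate fits had a Pearson r of 0.676 and a Spearman coefficient of 0.537, as a description across genes, which are not independent of each other. Over 9855 genes elsewhere they had 0.0065 and −0.014. Of 157 ZAL2 genes with an unadjusted p under 0.05 in SY birds, 143 (91.1%) had the same sign in ASY birds, against 208 of 415 (50.1%) elsewhere. Genes with an unadjusted p under 0.05 and the same sign in both made up 46.3% of the ASY list and 43.9% of the SY list on ZAL2, and 2.15% and 3.13% of these lists elsewhere.

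**Figure D4:**
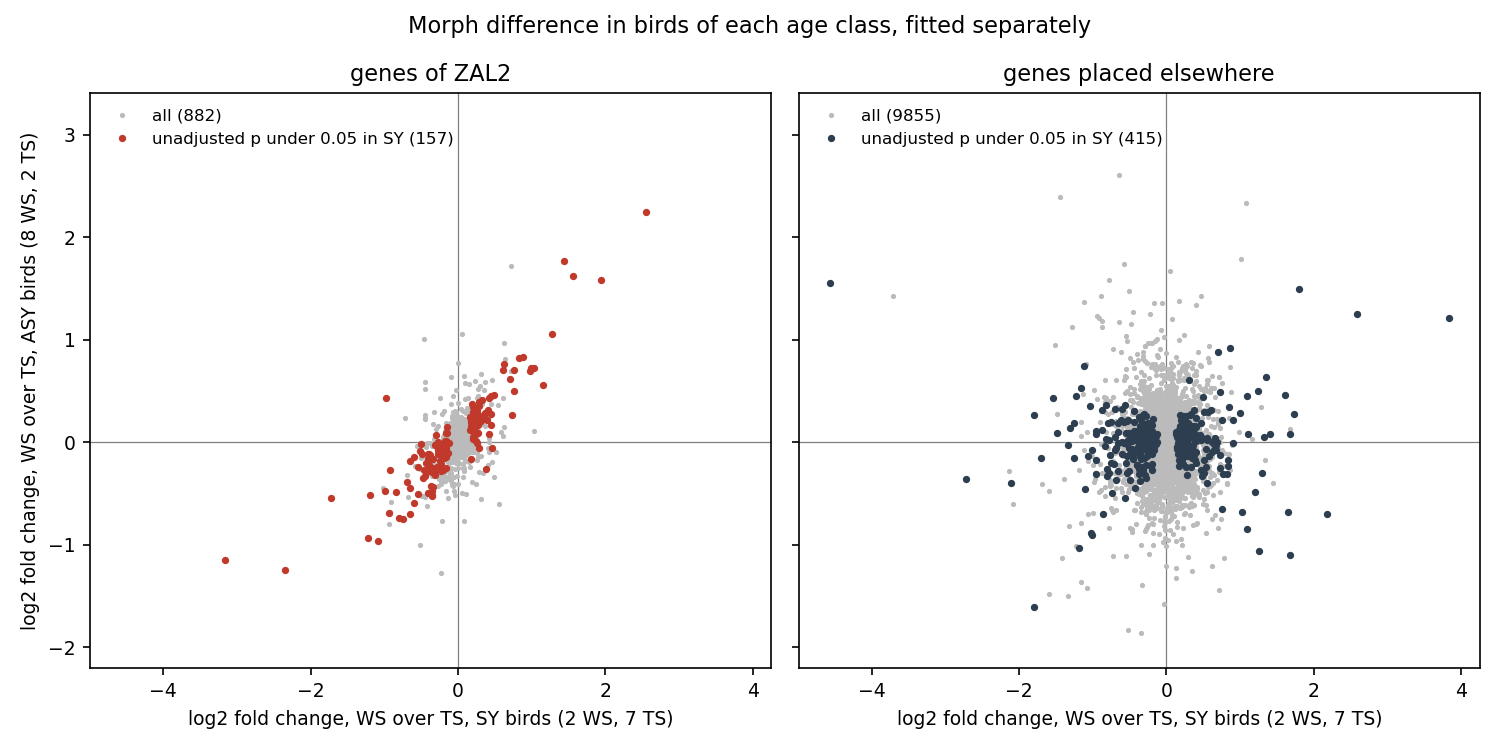
The log2 fold change of WS over TS among ASY birds (y axis) is plotted against that among SY birds (x axis), from separate fits, for genes of ZAL2 (left) and genes placed elsewhere (right). Coloured points had an unadjusted p under 0.05 in SY birds. On ZAL2 143 of 157 coloured points have the same sign in both age classes, and elsewhere 208 of 415 do.

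The 4 genes called only with age class had weaker differences without it. CRB2, a protein of cell polarity, was at 35.2, 39.4 and 45.5 CPM in WS birds and at 39.5, 47.2 and 52.1 CPM in TS birds, with a log2 fold change of −0.32 with age class (SE 0.064, edgeR adjusted p = 0.0249) and −0.21 without. LOC102069238, listed as FAM219B, differed by −0.43 (SE 0.087, edgeR adjusted p = 0.0235) and SLC4A1AP, on ZAL2, by −0.26 (SE 0.057, edgeR adjusted p = 0.0388), against −0.27 and −0.20 without. HFM1, a helicase of meiosis, rested on 1 bird, and its CPM of 34.1 stood beside 0.28 to 5.74 in all other WS birds and 0.325 to 2.83 in TS birds (log2 fold change 3.19 with age class, SE 0.70, edgeR adjusted p = 0.0407).

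In the amygdala of the same birds the called genes mostly leaned the same way. Of the 95 genes, 89 passed the filter on low counts in MeA, and 82 of these had the same sign there. The 7 of opposite sign were CHGB, EFEMP1, MCFD2, NBAS, PROKR2, TPBG and ZNF451. As HYP and MeA were punched from the same brains, this is no independent repeat. In MeA 61 of 11672 genes were called (0.523%), and 32 were shared, 33.7% of the HYP list and 52.5% of the MeA list. A test of the difference between regions, with the bird as a block, called 0 of the 95 genes, with the lowest adjusted p at 0.137 for VTA1. Of the 95, 21 (22.1%) had an unadjusted p under 0.05, against 10.5% of all genes. The 95 were chosen on their difference in HYP, which favours a difference between regions, so these shares cannot be compared as a result. The chromogranin gene CHGB had a log2 fold change of 0.34 (SE 0.059) in HYP and −0.02 (SE 0.11) in MeA (unadjusted p of the difference 0.0139). EFEMP1 had −0.62 (SE 0.11) in HYP and 0.20 (SE 0.32) in MeA (unadjusted p 0.0159), and the kinase MAP3K5 0.33 (SE 0.056) and 0.09 (SE 0.07) (unadjusted p 0.0014). None of these differences between regions passed the adjustment.

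Over all 12245 genes tested, 3 differed in their morph effect between the regions (0.0245%), and none of them was called in HYP. BTBD3, a BTB-domain protein that steers dendrites, was at 192, 212 and 235 CPM in HYP of WS birds and at 195, 212 and 227 CPM in HYP of TS birds. Its log2 fold change was −0.01 (SE 0.039) in HYP and 0.40 (SE 0.059) in MeA (edgeR adjusted p of the difference 0.0012). ESR1, the estrogen receptor alpha, was at 12.8, 16.7 and 23.2 CPM in HYP of WS birds and at 11, 20.2 and 24.0 CPM in HYP of TS birds, with a log2 fold change of −0.12 (SE 0.13) in HYP and 1.36 (SE 0.25) in MeA (edgeR adjusted p of the difference 0.039). CD109, a membrane protein that binds TGF-beta, was at 8.53, 15.7 and 26.8 CPM in HYP of WS birds and at 8.77, 10.8 and 13.9 CPM in HYP of TS birds. It had 0.56 (SE 0.15) in HYP and 1.56 (SE 0.21) in MeA (edgeR adjusted p of the difference 0.00485), and without the bird as a block this call was lost. By limma-voom with bird as a random effect 4 genes were called, 2 higher and 2 lower. BTBD3 was among them (limma adjusted p = 8e-05), while CD109 and ESR1 were not (limma adjusted p = 0.0885 and 0.169).

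**Figure D5:**
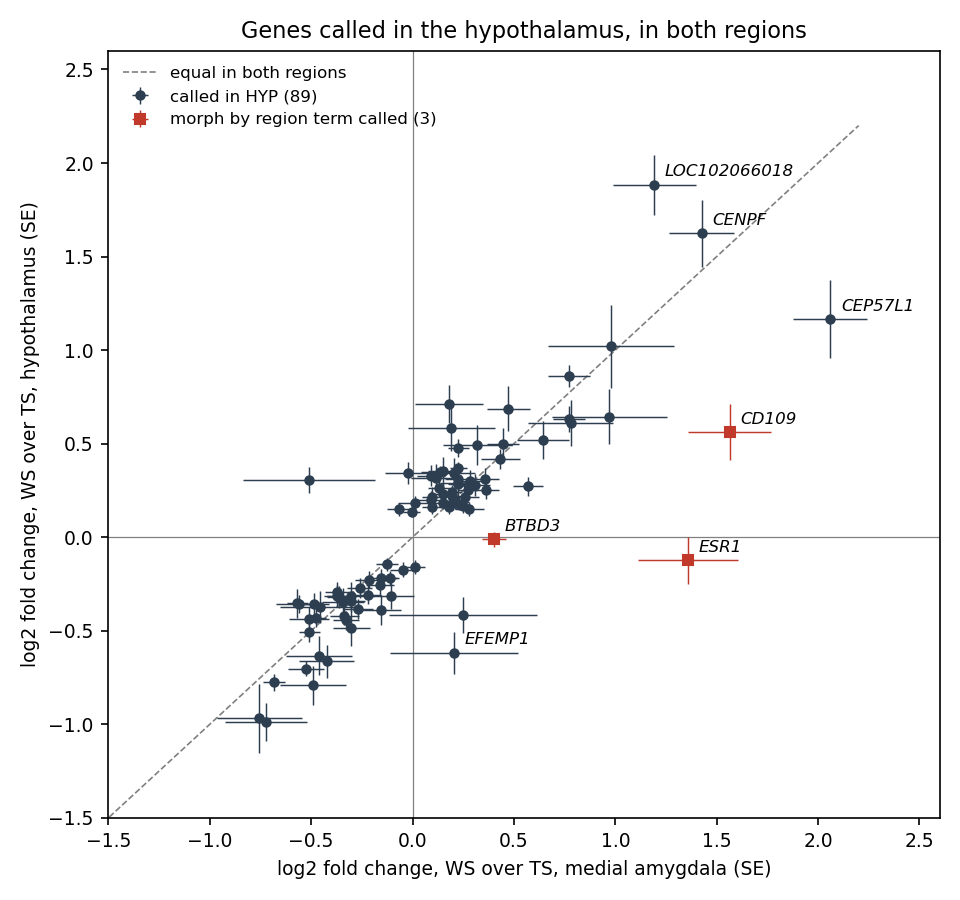
The log2 fold change of WS over TS in HYP (y axis) is plotted against that in MeA (x axis) of the same birds, with SE as bars. Dark points are the 89 HYP calls tested in both regions and red squares the 3 genes whose morph effect differed between regions, and the dashed line marks equal values. Most dark points lie in the upper right and lower left, and BTBD3, ESR1 and CD109 lie right of the line.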

How the data were processed

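Libraries were prepared from total RNA with a TruSeq RNA kit of Illumina, per the labels. The authors deposited raw read counts for each gene in each library and, separately, values on roughly a log2 scale after variance stabilization, which entered only 1 alternative fit. HTSeq, STAR, Novoalign, GATK, SAMtools and DESeq2 are named in the submitters' processing notes, without roles. The name of the deposited counts refers to NCBI plus Zal2m and to a minqual setting, without explanation. Genome build and read assignment rules were otherwise not given in the sources used here, so similar or overlapping genes may share reads. Columns of a bird without a listed sample, 2 in number, were not used.

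Counts were fitted with edgeR 4.0.16 in R 4.3.3 (TMM, filterByExpr, quasi-likelihood F test, Benjamini-Hochberg adjustment over all genes tested, threshold 0.05). An SE is the size of the log2 fold change divided by the root of F. Contrasts within an age class came from a model with 4 groups of morph and age class. The morph by region term was fitted on the 38 libraries with each bird as a block. Alternatives used limma 3.58.1 and DESeq2 1.42.0. Libraries of 1 morph differed by more than sampling noise (chi-square over degrees of freedom 5.39 to 13.1 in 81 pairs), so each counts as 1 bird, and p-values measure the spread among birds. Band numbers in the titles pair HYP with MeA, and in 19 of 19 birds the deviations of the HYP library matched best those of the bird's own MeA library (r of 0.277 to 0.542, against at most 0.112 for another bird).

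Of 15111 genes counted, 12512 were placed through the gene table of bZonAlb1.hap1, and 2579 were unmatched. Its chromosome 3 held all 113 placed genes of 121 anchors and is called ZAL2 here, and it may reach beyond the inversion. Named genes were the 15 largest and 15 smallest log2 fold changes among calls, the 10 lowest p, calls off ZAL2 or without a position, calls lost or gained with age class, called list members with up to 4 more by level, and genes called in an interaction. The other called genes, the role groups, and the single birds and genes LOC102072839, TOP2A, RSAD2, FOSL2, CCK, B3GNT4 and PIWIL2 were chosen after their values were seen. Members, lists and tests were all chosen with earlier results of these data known. One called gene is counted but not reported here. The fitting code was tested on simulated data.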

Additional observations from a re-analysis of the deposited data

Results flagged for a closer look

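A single bird stood far from the others of its morph in 16 of 220 groups examined, 110 genes in each morph. The nominal rate of the rule under chance is about 1 in 20, which was not measured in these data. The genes were no neutral set, being those named for their differences, with LOC102072839, B3GNT4 and PIWIL2 chosen after their values were seen. Among WS birds the lone high values were 40.7 CPM for NTPCR (next bird 36.1), 12.5 CPM for FERMT1 (9.49), 3.39 CPM for FRK (1.92), 15.4 CPM for SMYD3 (12), 13.7 CPM for the glycosyltransferase B3GNT4 (9.6), 5.76 CPM for PIWIL2, a germline gene (3.35), 34.1 CPM for HFM1 (5.74) and 111 CPM for LOC102072839 (26.2). FERMT1 and B3GNT4 came from the same bird, as did HFM1 and PIWIL2.

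Among TS birds the high values were 43.2 CPM for ARHGAP18 (next bird 32.3), 127 CPM for GNPAT (115), 23.8 CPM for KIF25 (16.3), 11.4 CPM for SMYD3 (8.54), 69.6 CPM for TAF5L (60.4), 2.83 CPM for HFM1 (1.22) and 3.17 CPM for PIWIL2 (1.95), and the low one was 0.822 CPM for KNSTRN (1.3). KIF25 and TAF5L came from 1 bird, and KNSTRN, SMYD3 and HFM1 from another.

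The morph effect differed between regions, by the test of the interaction, in 3 genes. The log2 fold change of WS over TS in HYP minus that in MeA was −0.41 for BTBD3, −0.97 for CD109 and −1.49 for ESR1. By limma-voom with bird as a random effect the test was passed by BTBD3 and not by CD109 or ESR1.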

How the results depend on the processing

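In HYP 65 of the 95 genes were called in all 19 fits that left out 1 bird, and 23 in fewer than 10 of them. Total calls then ran from 73 (without WS bird Sample_23600) to 92, and those on ZAL2 from 64 to 79. Calls elsewhere, 4 with all birds, ran from 0 to 4, being 0 without WS Sample_23540 or TS Sample_23623, 1 without TS Sample_23607, Sample_23610, Sample_23620 or Sample_23711 and 2 without TS Sample_23615 or WS Sample_23600, Sample_23601, Sample_23625 or Sample_23710. The genes changed too, with 3 higher without WS Sample_23617 and 3 lower without TS Sample_23626, against 2 of each with all birds. With age class calls ran from 28 (without TS Sample_23623 or WS Sample_23710; 31 without TS Sample_23705 or WS Sample_23596) to 55, and for age class itself they stayed at 0. Within ASY birds they ran from 8 (without TS Sample_23705) to 18, within SY birds from 6 (without TS Sample_23608, TS Sample_23711 or WS Sample_23710) to 11, and for the interaction of morph and age class from 0 to 1 (without TS Sample_23607, TS Sample_23705 or WS Sample_23710). Total calls were 146 by DESeq2, 51 with age class, 45 in stage E birds, 19 in stage E birds with age class, 5 in ASY and 6 in SY birds. On ZAL2 they were 45 with age class, 42 in stage E birds, 17 in stage E birds with age class, 5 in ASY and 6 in SY birds. Elsewhere they were 17 by DESeq2, 2 without a filter on low counts, 1 with stage in the model, and 0 in stage E birds, with or without age class, in ASY birds and in SY birds. Age class gave 1 call without the filter. Other normalization, limma-voom, the deposited values, the robust option and stage in the model gave 86 to 100 calls, with 82 to 95 of the 95 shared. EPM2A, NTPCR and RRP36 were called under every alternative run, the fits within a single age class included. Sign changed for B3GNT4, 0.14 in SY birds against −0.33 in all, and for BTBD3, 0.0016 without WS Sample_23604 and down to −0.030 without WS Sample_23602, against −0.01. Without the replicate block of the bird, 2 genes differed in morph effect between regions in place of 3, and with bird as a random effect in limma-voom 4 did, 1 of the 3 among them; the block moved no other value, since each bird gave 1 HYP library. ASY birds held 2 TS libraries and SY birds 2 WS libraries, which limits those fits. The causes of these changes were not tested.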

Other observations

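The steepest log2 fold change among all ZAL2 genes belonged to a gene that was not called. LOC102072839, listed as SHLD1, which encodes a part of the shieldin complex of DNA break repair, was at 111, 26.2, 9.66 and 9.6 CPM in 4 WS birds. The other 6 WS birds had 2.51 to 4.2 CPM and the TS birds 2.23 to 4.31 CPM (log2 fold change 2.48 with SE 0.67, edgeR adjusted p = 0.103). In MeA the same 4 birds were again the highest and in the same order, at 62.4, 23.1, 12.7 and 12.5 CPM, while the next bird had 4.15 CPM. The deposited counts behind the first bird were 1334 in HYP and 656 in MeA. Without that bird the log2 fold change in HYP was 1.20 (edgeR adjusted p = 0.254). By age class, 2 of the 4 birds were ASY and 2 were SY.

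HFM1 showed the same recurrence in 1 bird. That WS bird had 34.1 CPM in HYP and 18.6 CPM in MeA, and the next bird in each region, also WS, had 5.74 and 2.21 CPM. What sets these birds apart was not tested.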
